A study of Mus musculus with 42 samples.

Results

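SMARCA2/4 binding in the hippocampus of Ts65Dn mice was compared with that in euploid mice from the lists of chromatin immunoprecipitation (ChIP-seq) peaks deposited for each genotype. The members were all peaks of both lists, 22667 euploid and 1290 Ts65Dn peaks, out of 25830 SMARCA2/4 peaks for the 3 genotypes of the series together. The lists came from 16 of the 42 libraries of the series, 4 immunoprecipitated and 4 input libraries per genotype. Each replicate held the hippocampus of 1 side of the brain from 2 male animals, which the labels give as 6 to 8 weeks old. Ts65Dn mice carry an extra chromosome with the distal end of chromosome 16 and the centromeric end of chromosome 17, and the euploid mice carry the normal set. Animals of both genotypes came from crosses of trisomic females on a mixed DBA/2J x B6EiC3Sn/J background with males from the Brwd1 mutant line, so the background was not inbred. The third genotype, Ts65Dn;Brwd1+/-, is trisomic with 1 of its Brwd1 copies disrupted, and it is used here only to ask whether a peak was seen again. Accessible chromatin had been measured by ATAC-seq in sorted NeuN-positive hippocampal nuclei of adult males, 6 weeks old in the study (3 libraries per genotype). RNA had been measured in cultures of embryonic day 16 forebrain neurons of mixed sex (3 libraries per genotype). These cells were grown in vitro before collection, with AraC to hold back dividing glia.

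SMARCA2 and SMARCA4 are the alternative ATPases of the BAF (mammalian SWI/SNF) complex, which uses ATP to slide or evict nucleosomes and so opens promoters and enhancers to transcription factors. In neurons the complex carries its own set of subunits, among them SS18L1 (CREST) and ACTL6B (BAF53b), and mutations of BAF subunits are a known cause of intellectual disability. BRWD1, a protein with bromodomains and WD repeats, is encoded in the segment that is triplicated in Ts65Dn, and the study asked whether its extra copy alters where BAF sits on the genome. A peak is a stretch of the genome with more reads in the immunoprecipitate than in input. Its fold enrichment is the ratio of the signal there to the local background, and its q-value is a p-value adjusted over the genome. A euploid peak is called kept when a Ts65Dn peak overlapped it by at least 1 bp and lost otherwise, and a Ts65Dn peak with no euploid peak is called gained. Few peaks lay at that limit, since 601 of the 605 kept peaks overlapped by more than a single base, and 1420 euploid peaks lay within 500 bp of a Ts65Dn peak. Because there was 1 pooled list per genotype, no replicate error could be computed and no test was run on peaks, and shares are given with Wilson 95% confidence intervals that cover counting error only. The read depth behind the lists is unknown. Many deposited fold enrichments fell on regular steps (21.1% of euploid and 42.5% of Ts65Dn peaks, within 0.002), as whole pileups over a constant background would give, and the background that fitted best, divided by the width of the narrowest peak, was 0.0532 per base in euploid and 0.0523 in Ts65Dn. The study reports MACS at default settings, although the listed q-values run above its stated limit, so the lists do not follow that description in full. Under default settings the larger of immunoprecipitate and input is scaled down to the smaller. If that step was used, these near-equal values bear on the smaller of both in each genotype. The depth of each immunoprecipitate does not follow from them, and that depth and the number of sites bound cannot be told apart.

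The euploid list was 17.6-fold longer than the Ts65Dn list and covered 2.68 Mb against 0.0948 Mb, a 28.3-fold difference. Ts65Dn peaks were also shorter (median 62 against 93 bp), whereas the median fold enrichment was almost the same, 3.70 in Ts65Dn and 3.74 in euploid. The lists differed in the certainty of their peaks, since 87.8% of euploid peaks but 31.8% of Ts65Dn peaks (410 peaks) had a q-value under 0.05. Of the euploid peaks, 605 were kept (2.67%, interval 2.47 to 2.89%) and 22062 were lost. Of the Ts65Dn peaks, 620 lay on a euploid peak and 670 were gained (51.9%, interval 49.2 to 54.7%). Only 25.1% of the gained peaks had a q-value under 0.05, as did 39.0% of the Ts65Dn peaks that lay on a euploid peak. Kept peaks were wider in euploid than lost ones (median 141 against 93 bp) and somewhat more enriched (median 4.02 against 3.73), and a wider peak is overlapped more readily.

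A few of the strongest peaks of each class are shown, and they are not typical of it in height. The strongest euploid peak lay in Brwd1 itself, on chromosome 16, and that peak and the strongest peak of Ss18l1, on chromosome 2, were both kept, as was a short peak in an intron of Nrxn3 (a presynaptic adhesion protein) on chromosome 12. Among the strongest lost peaks was 1 upstream of Zfp703 (a transcriptional repressor) on chromosome 8. Among the strongest gained peaks were 1 in Cntln (centlein, a centrosomal protein) on chromosome 4 and 1 in Prr14l on chromosome 5. The sequences of the peaks in Brwd1, Nrxn3, Zfp703, Cntln and Prr14l are those of the reference genome (mm10, plus strand) over the deposited peak. In the 2 kept peaks capitals mark the bases that lay inside the Ts65Dn peak as well, and in the lost and gained peaks capitals mark every CG dinucleotide. The kept peaks coincided nearly end to end, the lost peak held 9 CG dinucleotides, and the 2 gained peaks, of 57 and 58 bp, held 0. Windows of 100 bp at the centre of all gained peaks, which are longer than these peaks, held 2.43 on average.
Brwd1, chr16:96059477-96059646, kept: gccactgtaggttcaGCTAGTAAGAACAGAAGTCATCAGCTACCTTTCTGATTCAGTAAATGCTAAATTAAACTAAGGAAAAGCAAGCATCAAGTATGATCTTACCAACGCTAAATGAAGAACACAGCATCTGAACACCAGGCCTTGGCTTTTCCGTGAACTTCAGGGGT
Nrxn3, chr12:89631354-89631418, kept: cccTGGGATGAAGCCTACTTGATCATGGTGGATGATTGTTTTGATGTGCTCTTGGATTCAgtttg
Zfp703, chr8:26976770-26976943, lost: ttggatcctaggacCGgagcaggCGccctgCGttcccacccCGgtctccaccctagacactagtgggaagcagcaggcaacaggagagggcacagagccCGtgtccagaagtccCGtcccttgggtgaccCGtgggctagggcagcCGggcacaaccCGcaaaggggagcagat
Cntln, chr4:84969178-84969234, gained: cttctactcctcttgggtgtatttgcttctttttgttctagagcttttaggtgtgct
Prr14l, chr5:32847501-32847558, gained: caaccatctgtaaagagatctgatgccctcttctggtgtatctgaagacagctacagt

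The peak printed for Brwd1 overlapped a coding exon and had a fold enrichment of 20.4 in the euploid list, 12.5 in that of Ts65Dn and 9.21 in that of Ts65Dn;Brwd1+/-. Exons made up 38.2, 44.1 and 42.3% of its bases in the 3 lists. In all 3 lists this peak lay inside the stretch that the study's primers for genotyping the Brwd1 mutation amplify, and it reached into both primer sites. Whether amplified DNA had a part in its height was not tested, so the peak and the kept status of Brwd1 are uncertain as binding. Brwd1 had a second euploid peak near its start, at 3.97, which was lost. The peak of Nrxn3 was higher in Ts65Dn (9.54) than in euploid (7.13) and stood at 9.68 in Ts65Dn;Brwd1+/-. The lost peak of Zfp703 had a fold enrichment of 6.96, and the 2 gained peaks both had 6.45 and recurred in Ts65Dn;Brwd1+/-, at 6.60 in Cntln and 7.50 in Prr14l, against a median of 3.70 and a recurrence of 10.0% over all gained peaks.

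The share of peaks kept was highest among the tallest. Every euploid peak with a fold enrichment of 8 or more was kept (24 of 24), as were 39 of 116 between 6 and 8 (33.6%) and 8.73% of those between 5 and 6. From 4 to 5 it was 2.57%, from 3 to 4 it was 1.52%, and under 3 it was 4.61%. The 24 peaks at 8 or more included the Brwd1 peak described above and several peaks of the single gene Ss18l1. The 1290 strongest euploid peaks, all with a fold enrichment of at least 4.94, were set against the 1290 Ts65Dn peaks so that both lists had the same length. On that footing 160 euploid peaks were overlapped (12.4%, interval 10.7 to 14.3%), so most of the strongest euploid peaks had no counterpart. The overlap was highest at the top of the ranking, with 21 of the top 25 euploid peaks overlapped by a top 25 Ts65Dn peak, 40 of the top 100 and 88 of the top 400. The left panel of the plot of equal numbers shows this decline, and the right panel shows where these peaks lay. In each list 52.0% of the top 25 peaks lay between genes and 4 of the 25 at promoters. Among the top 100 peaks 44 euploid and 16 Ts65Dn peaks lay at promoters.

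**Figure D1:**
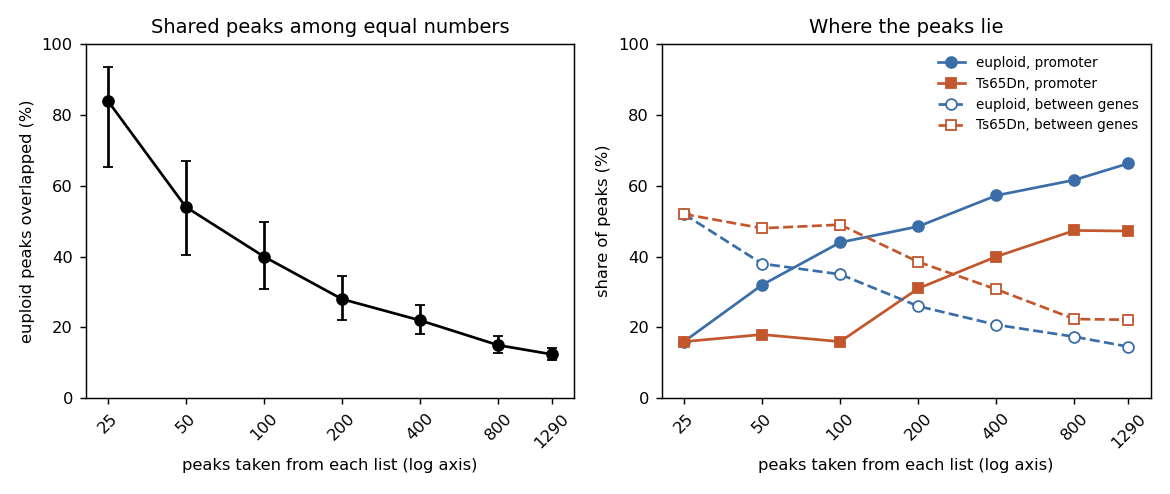
Left, percent of the strongest euploid peaks overlapped by an equal number of the strongest Ts65Dn peaks (y axis), against the number taken from each list (x axis, log scale), with Wilson 95% intervals. Right, percent of the same peaks in promoters (solid) and between genes (dashed) in euploid (blue) and Ts65Dn (orange); at 1290 peaks 66.3% of euploid and 47.2% of Ts65Dn peaks lay in promoters.

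Where both genotypes had a peak, the heights in Ts65Dn and euploid were compared as a ratio. Over the 605 kept euploid peaks the log2 ratio of Ts65Dn to euploid fold enrichment had a median of -0.08, with quartiles of -0.31 and 0.18, and 255 (42.1%) were higher in Ts65Dn. The median was 0.07 for the 289 pairs with a euploid fold enrichment under 4 (59.5% higher in Ts65Dn), -0.28 for the 253 pairs from 4 to 6 (19.8% higher) and 0.02 for the 63 pairs above. The pairs are grouped here by the denominator of their own ratio, and both members had to be called as peaks, so nothing is read from the order of these medians. By region the median ratio lay between -0.13 at proximal promoters and -0.02 between genes. Kept peaks were also those most often seen in the other trisomic genotype. Of them 40.2% (243 of 605) overlapped a Ts65Dn;Brwd1+/- peak, against 2.82% of lost euploid peaks and 10.0% (67 of 670) of gained Ts65Dn peaks. Kept peaks were also wider (median 141 bp, against 93 in lost and 58 in gained peaks), and the part of width was not tested.

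Proximal promoters, within 250 bp of an annotated start, held a smaller share of the Ts65Dn list than of the euploid list (15.1 against 24.9%, intervals 13.3 to 17.2 and 24.3 to 25.5%). Outer promoters, up to 3 kb from a start, held 32.1 against 35.2%, gene bodies 30.6 against 27.1%, and the space between genes 22.2 against 12.8%. Equal numbers of peaks by fold enrichment widened the contrast at promoters, since 27.7% of the 1290 strongest euploid peaks lay in proximal promoters and 38.6% in outer ones, but ranked by q the share in proximal promoters was 23.2%, which narrowed it. They widened it in gene bodies too, with 19.1% of the strongest euploid peaks, and narrowed it between genes, with 14.6%. Gained peaks were placed much like the Ts65Dn list as a whole, with 14.8% in proximal promoters and 34.5% in gene bodies. The same order held for retention: 1.72% of proximal promoter peaks were kept (97 of 5643), 2.62% of outer promoter peaks, 2.63% of gene body peaks and 4.71% of peaks between genes (137 of 2907). Among the 1290 strongest euploid peaks these shares were 3.36% (12 of 357), 8.84%, 47 of 247 peaks in gene bodies and 30.3% (57 of 188), and the intervals at proximal promoters (1.93 to 5.78%) and between genes (24.2 to 37.2%) did not overlap.

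**Figure D2:**
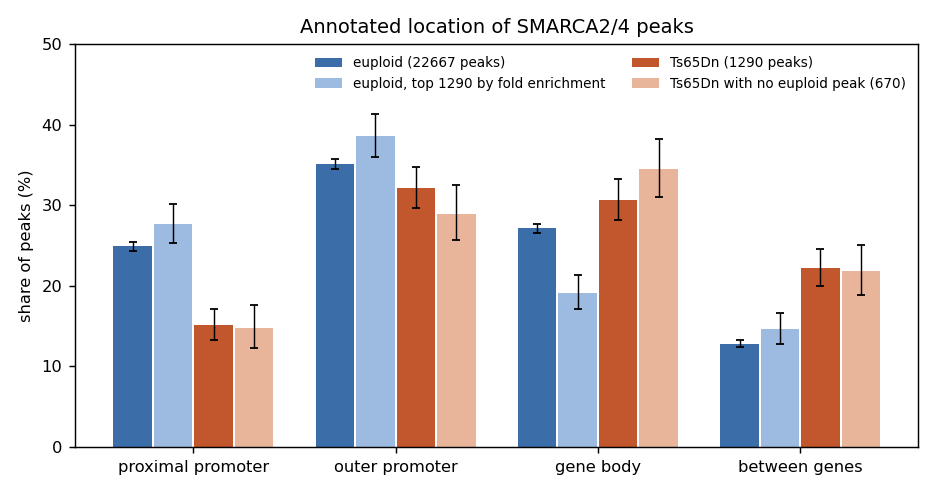
Share of peaks (y axis, percent, bars from 0) by annotated location (x axis) for all euploid peaks, the 1290 strongest euploid peaks, all Ts65Dn peaks and the 670 gained peaks, with Wilson 95% intervals. Proximal promoters held 24.9, 27.7, 15.1 and 14.8% of the 4 sets.

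Base composition set gained peaks apart, but not kept from lost ones by median GC content. In the central 100 bp the median GC content was 55% in kept, 55% in lost and 52% in gained peaks and 59% in the 1290 strongest euploid peaks, against 46 to 47% in windows shifted by 5000 bp. The GC box GGGCGG (either strand), which SP/KLF factors bind, occurred in 15.2% of the strongest euploid, 11.1% of lost, 9.40% of kept and 4.45% of gained windows, and in 1.38 to 2.33% of shifted windows. The AP-1 motif TGANTCA, the site of FOS and JUN dimers, occurred in 4.79% of kept, 4.10% of lost and 4.61% of gained windows against 2.87 to 3.28% of shifted ones, and these intervals overlapped between the 3 classes. The E-box CAGNTG (either strand), bound by neuronal bHLH factors, occurred in 22.4, 25.6 and 28.1% of kept, lost and gained windows and in 21.6 to 23.1% of shifted ones. Such matches are letters in a window and not evidence of binding. Windows of which at least 50% was repeat-masked were rare among lost peaks (3.63%) and more common among kept (15.4%) and gained ones (15.2%), all below the shifted windows of the same peaks (21.6, 27.6 and 24.7%). They made up 13 of the 24 kept peaks with a fold enrichment of 8 or more, against 37.5% of their shifted windows. In an intergenic kept peak on chromosome 17, at 14.6 in euploid and 7.13 in Ts65Dn, the pentamer ATTCC occurred 41 times in 278 bases. Whether mapping to repeats had a part in the kept peaks was not tested, and the kept share was 2.32% once repeat-masked peaks were left out of both lists.

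Over all regions, accessible chromatin in neuronal nuclei covered kept sites most often and gained sites least. A euploid ATAC peak overlapped 36.2% of kept, 26.2% of lost and 15.5% of gained peaks, and a Ts65Dn ATAC peak overlapped 55.5, 44.4 and 29.7%. The Ts65Dn ATAC list was the longer one (29195 against 15521 peaks), so the columns are read within a list and not between them. Of the 22062 sites without a Ts65Dn SMARCA2/4 peak, 9799 were covered by a Ts65Dn ATAC peak, and at proximal promoters 70.7% were. Within gene bodies kept peaks were overlapped by a Ts65Dn ATAC peak in 52.5%, lost peaks in 30.7% and gained peaks in 28.1%. Between genes they were overlapped in 45.3%, 44.6% and 35 of 146 peaks, and at proximal promoters in 78.4, 70.7 and 47.5%, and in both places the intervals of kept and lost peaks overlapped. Kept peaks were also the widest and gained ones, with a median of 58 bp, the narrowest, and the part of width in this order was not tested.

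At the level of genes, 6442 of 21951 protein-coding genes (29.3%) had a euploid peak in their promoter or body and 711 (3.24%) had a Ts65Dn peak. Of the euploid genes 639 were kept, having a peak in Ts65Dn too (9.92%, interval 9.21 to 10.7%), and 5803 were lost. With q under 0.05 in both lists 185 of 6014 genes were kept (3.08%). Among the 711 Ts65Dn genes, 72 were gained (10.1%). So while about as many Ts65Dn peaks lay off euploid peaks as on them, 639 of the 711 Ts65Dn genes were euploid genes. Against the 1290 strongest euploid peaks alone, 72.0% of the Ts65Dn genes had no euploid peak. The kept genes were of 2 kinds, 335 with an overlapping peak and 304 whose peaks lay at different sites of the gene. From the 1290 strongest euploid peaks 811 genes (3.69%) had a peak, of which 199 also had one in Ts65Dn (24.5%, interval 21.7 to 27.6%). When only promoter peaks counted, 383 of 5619 genes were kept (6.82%).

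Genes with many euploid peaks were kept most often. The kept share was 3.39% for genes with 1 euploid peak, 7.71% for 2 to 3, 18.6% for 4 to 6, 39.7% for 7 to 12 and 63.4% (78 of 123) for 13 or more. The number of Ts65Dn peaks per 100 euploid peaks moved far less, from 3.49 in the first group to 5.77 in the last, with 4.58 over all genes that had a euploid peak and 5.00 once the peaks of gained genes are added. Kept genes had a median of 4 euploid peaks and a length of 63.2 kb, and lost genes 2 peaks and 32.7 kb, beside 17.4 kb over all protein-coding genes. A share of kept genes therefore has to be read beside the peaks per gene. Ts65Dn peaks per 100 euploid peaks, gained genes included, are given in the text below for some functional lists only. The plot of functional lists gives them for every list with at least 10 euploid genes. The 45 genes with at least 20 euploid peaks went from 1274 peaks to 70, and 10 of them had none left.

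These genes included transcription factors and synaptic genes. Tcf4, a bHLH factor, had 85 euploid peaks and 3 in Ts65Dn. Nfix, a nuclear factor I protein, went from 65 to 5, Gse1 from 62 to 4, and Zbtb16, a zinc finger repressor, from 32 to 2. Kalrn, a guanine nucleotide exchange factor of dendritic spines, had 45 and 2, and Celf2, an RNA-binding splicing regulator, 33 and 1. No Ts65Dn peak was listed in Myt1l (34 euploid peaks), which represses non-neuronal genes, in Prkce (29), a protein kinase C, in Gabbr2 (25), a GABA-B receptor subunit, in Dlgap1 (23), a postsynaptic scaffold, in Camk2a (22) or in Grin2b (21). The highest fold enrichments of these domains were moderate in euploid, 5.70 in Tcf4, 5.74 in Nfix and 4.98 in Myt1l, and the highest Ts65Dn peaks of Tcf4 and Nfix stood at 3.87 and 4.90.

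The 8 kept genes with the strongest euploid peak included Brwd1, Ss18l1, Papss2, Olfr401, Stxbp5l, Nrxn3 and Irf2bp2. Ss18l1, the calcium-responsive BAF subunit, stood out with 12 euploid and 10 Ts65Dn peaks. Of these peaks 10 of 12 and 10 of 10 overlapped an exon of the gene, compared with 9.06% of all euploid and 10.9% of all Ts65Dn gene body peaks. The Ts65Dn values lay between 5.89 and 14.5 and the euploid values at the same 10 places between 5.74 and 13.7, and a peak lay at all 10 places in Ts65Dn;Brwd1+/- too, between 4.16 and 15.2. In the plot of Ss18l1 the 3 genotypes are interleaved along the gene with no genotype highest throughout. The 2 euploid peaks with no counterpart were the weakest, at 3.51 and 3.95, just inside the gene and off its exons. What placed the other peaks of Ss18l1 on exons was not tested, so its kept status is uncertain as binding. Papss2, which makes the sulfate donor PAPS, had 1 peak off its exons at 10.6 in euploid and 9.57 in Ts65Dn. Olfr401, an olfactory receptor, had 1 at 9.04 and 10.3, and was the only kept gene of 1435 olfactory and vomeronasal receptor genes, 2 of which had a euploid peak. Stxbp5l (tomosyn-2), which restrains vesicle fusion, had 4 euploid peaks up to 7.95 and 1 in Ts65Dn at 11.1. Irf2bp2, a corepressor, had 16 peaks in euploid and 2 in Ts65Dn, and its strongest euploid peak (7.21) was not among those overlapped.

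**Figure D3:**
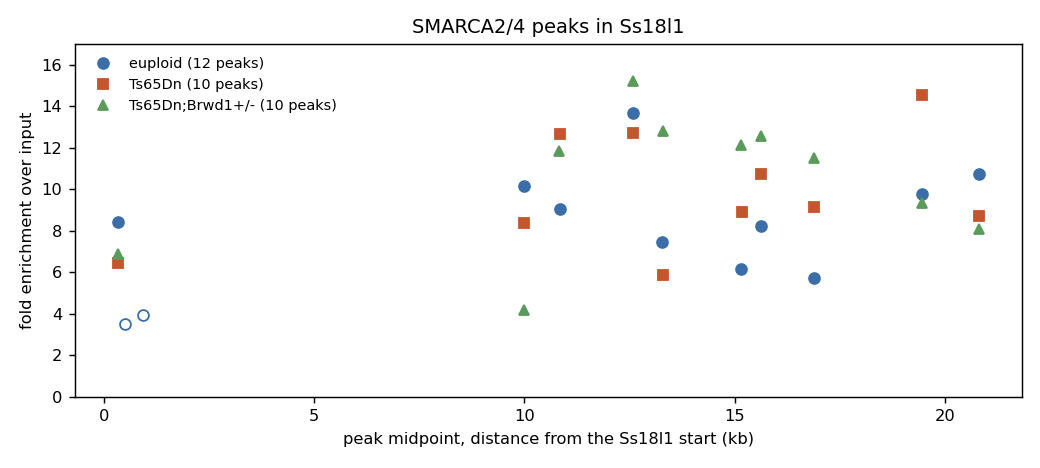
Fold enrichment over input (y axis) of every SMARCA2/4 peak in Ss18l1 against the distance of its midpoint from the start of the gene (x axis, kb), for euploid (circles), Ts65Dn (squares) and Ts65Dn;Brwd1+/- (triangles). Filled symbols overlap an exon; the 2 open circles are the euploid peaks at 3.51 and 3.95 that do not.

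The 8 lost genes with the strongest euploid peak included Sgsm2 (7.12), Itgb7 (7.04), Pbld2 (7.03), Zfp703 (6.96), Kifc3 (6.93), Tbc1d22a (6.82) and Tnrc18 (6.78). The 8 genes had between 1 and 19 euploid peaks, and Tnrc18 had the most. In Ts65Dn;Brwd1+/- hippocampus Tnrc18 had 6 peaks, Sgsm2 and Tbc1d22a 1 each, and the other 5 genes 0. The 8 gained genes with the strongest Ts65Dn peak were A630010A05Rik (7.22), Cntln (6.45), Prr14l (6.45), Postn (6.27), Mum1 (5.98), Ppp1r18 (4.96), Tmem38b (4.84) and Pced1b (4.56), each with 1 peak. They belong to no single class, with periostin (Postn) a matrix protein, Ppp1r18 an actin-associated phosphatase subunit and Tmem38b an intracellular cation channel. Of these 8, A630010A05Rik, Cntln and Prr14l had a peak in Ts65Dn;Brwd1+/- too, at 7.50, 6.60 and 7.50.

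The genes were then grouped into 40 lists by function or cell type, beside the triplicated segment, and the plot of functional lists shows those with at least 10 euploid genes. Among receptors of synaptic transmission the kept shares differed. Of 17 ionotropic and metabotropic glutamate receptor genes with a euploid peak 6 were kept (35.3%, interval 17.3 to 58.7%), namely Gria1, Grin2a, Grik2, Grm7, Grik5 and Grik3. Of 13 GABA receptor genes with 65 euploid peaks 0 were kept (0 to 22.8%), an interval that includes the 9.92% of all euploid genes. Several other lists, such as Wnt genes, histones and oxidative phosphorylation, likewise had 0 kept genes. The glutamate list had more peaks to begin with, with 122 euploid peaks, 9 Ts65Dn peaks, and 7.38 Ts65Dn peaks per 100, and the intervals of the 2 lists overlapped. None of the 6 kept glutamate receptor genes had a q-value under 0.05 in both lists. Gria1, an AMPA receptor subunit, went from 14 peaks to 1 (highest 4.54 and 3.95), and Grin2a, an NMDA receptor subunit, from 20 to 3 (5.28 and 3.70).

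In the other synaptic lists the numbers of genes were small, and except for postsynaptic genes the intervals of the kept share included that of all genes (9.92%). Their peak ratios lay between 3.64 and 4.85 per 100, beside 5.00 for all genes. Of 41 genes of postsynaptic scaffolds and synaptic organisers 9 were kept (interval 12.003 to 36.7%), with 3.64 Ts65Dn peaks per 100 euploid peaks and a median of 6 euploid peaks per gene, against 2 over all protein-coding genes that had any. They included Nrxn3, Lrrc4b, Lrrc4, Magi2, Magi1, Dlg2, Shank1 and Tenm4, and only Nrxn3 and Lrrc4b had q-values under 0.05 in both lists. Lost members included Dlg4 (PSD-95), Shank2, Shank3, Homer1 and Nlgn1. Of 38 vesicle release genes 5 were kept (13.2%, interval 5.75 to 27.3%), Stxbp5l, Snap25, Nsf, Rimbp2 and Syt3, and Syt1, Bsn, Pclo and Vamp2 were lost. Potassium channels were kept in 5 of 45 genes (11.1%, interval 4.84 to 23.5%) and sodium and calcium channels in 4 of 21 (interval 7.67 to 40.0%). Lost potassium channels included Kcnq3, a channel of the M current, and kept ones Kcnma1, the large-conductance calcium-activated channel.

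**Figure D4:**
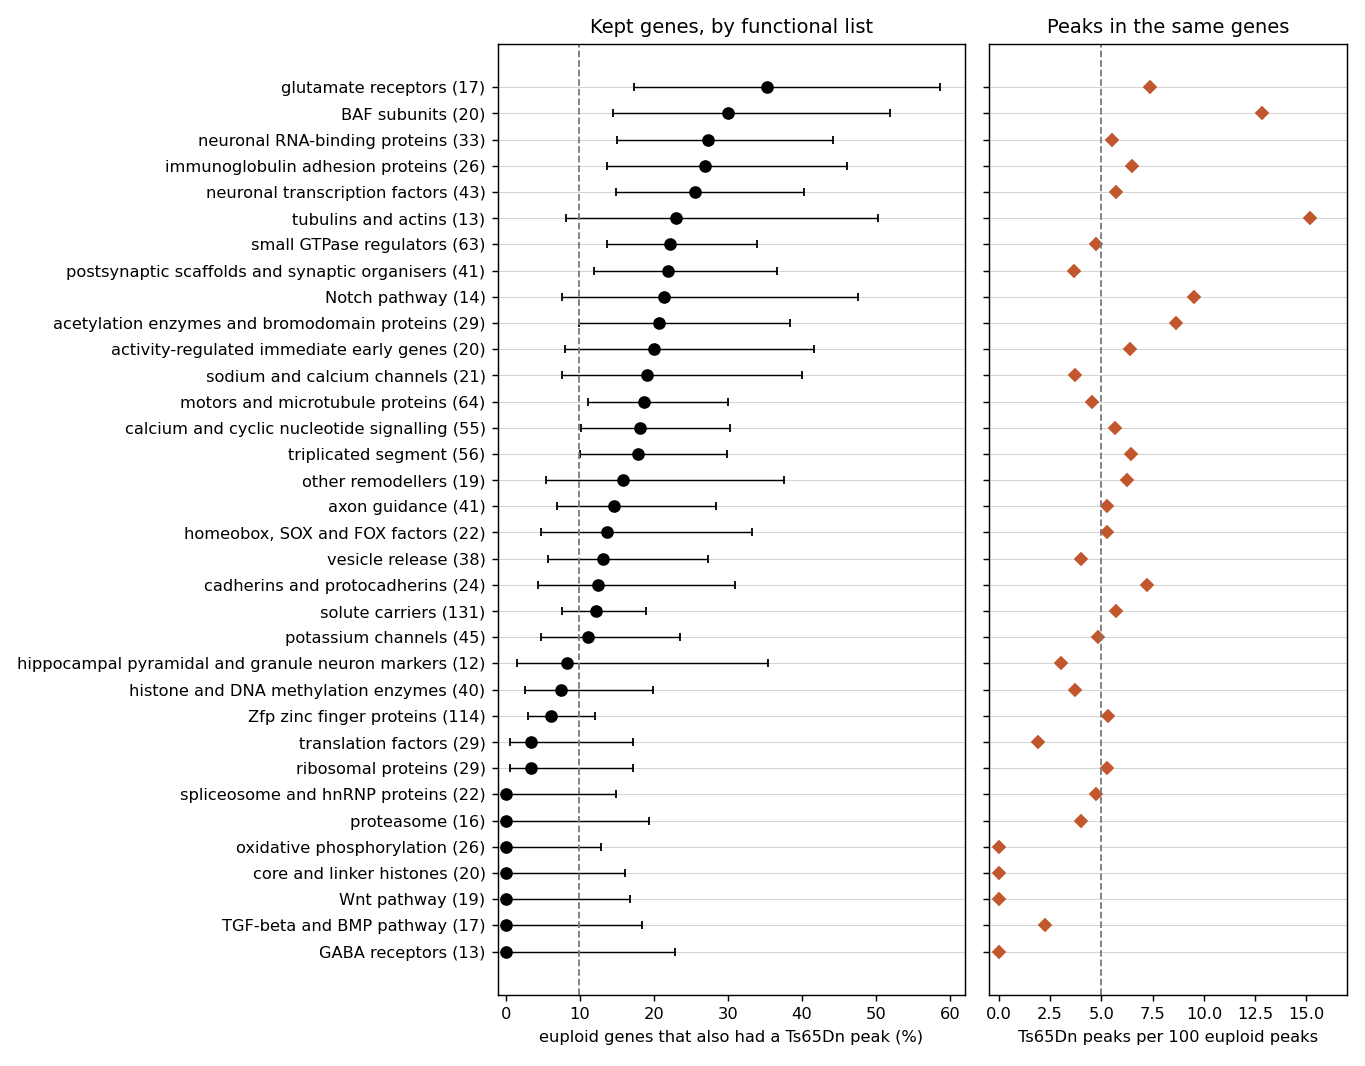
Left, percent of genes with a euploid peak that also had a Ts65Dn peak (x axis) in each functional list (1 line each, number of euploid genes in brackets) with Wilson 95% intervals, and right, Ts65Dn peaks per 100 euploid peaks over all genes of the list. Dashed lines mark all protein-coding genes (9.92% and 5.00); glutamate receptors stand at 35.3% and GABA receptors at 0.

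In the adhesion and wiring lists 7 of 26 immunoglobulin adhesion genes were kept (26.9%), including Dscam, Dscaml1, Cntn5 and Chl1. So were 6 of 41 axon guidance genes, including the Semaphorin receptor Nrp1 and the Slit ligands Slit1 and Slit3, and 3 of 24 cadherins. Of these only Cntn5, Dscaml1, Nrp1, Slit3, Efna3 and Pcdh1 had q-values under 0.05 in both lists. Netrin Ntn5 was gained, with a q-value of 0.0903. In signalling, 10 of 55 calcium and cyclic nucleotide genes were kept (18.2%), with 5.65 Ts65Dn peaks per 100. Only Camk2b, Prkcb and Prkca of these had q-values under 0.05 in both lists. Camk2b, the beta subunit of calcium/calmodulin kinase II, had 13 euploid and 3 Ts65Dn peaks, and 2 of the latter lay at a proximal promoter, at 4.17 and 5.03, where euploid had 1 peak at 5.12. Of small GTPase regulators 14 of 63 were kept (22.2%, 4.73 per 100), and none of them with q-values under 0.05 in both lists. Of 19 Wnt genes 0 were kept (0 of 31 peaks, interval for genes 0 to 16.8%), and of 17 TGF-beta and BMP genes 0. Among the lost ones were Apc, Gsk3b, Lrp6, Smad3 and Bmpr2. The Wnt interval includes the 9.92% of all euploid genes. These 2 lists had a median of 1 and 3 euploid peaks per gene, and of all genes with 1 euploid peak 3.39% were kept. The activin receptor Acvr2b and the Notch ligand Dll1 were gained, with q-values of 0.0903 and 1.

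Chromatin regulators spanned much of the same range. Of 20 BAF subunit genes with a euploid peak 6 were kept (interval 14.5 to 51.9%), Ss18l1, Bicra, Dpf1, Arid1a, Arid1b and Bcl11a. Only Ss18l1 and Bicra had q-values under 0.05 in both lists. The list had 12.9 Ts65Dn peaks per 100 euploid peaks, which became 6.25 when Ss18l1 was left out. The ATPase genes themselves were lost: Smarca2 had 10 euploid peaks, 9 of them in promoters and up to 4.47, and Smarca4 had 3, up to 3.77, and no Ts65Dn peak was listed in either. Actl6b, the neuronal actin-like subunit, lost its single promoter peak (4.04). Other remodellers kept 3 of 19, histone and DNA methylation enzymes 3 of 40 (7.50%), and acetylation enzymes and bromodomain proteins 6 of 29 (20.7%), among them Brwd1, Brd2, Crebbp and Hdac7. None of 20 histone genes was kept. Of neuronal transcription factors 11 of 43 were kept (25.6%, 5.70 per 100), including Nfix, Nfia, Tcf4, Zbtb20 and Bcl11a, while Neurod2, Mef2c, Creb1 and Prox1 were lost. Only Nfix, Nfia, Thrb and Klf7 of the kept factors had q-values under 0.05 in both lists. Homeobox, SOX and FOX factors kept 3 of 22 and Zfp zinc finger proteins 7 of 114 (6.14%, interval 3.01 to 12.1%). In activity-regulated immediate early genes 20 of 22 had a euploid peak, a higher share than the 29.3% of all genes. Of those 4 were kept, Btg2, Per1, Nr4a3 and Nr4a2, and Fos, Arc, Egr1, Npas4 and Bdnf were lost.

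RNA-binding proteins and housekeeping genes came next. Neuronal RNA-binding proteins kept 9 of 33 genes (27.3%), such as Mbnl1, Celf4 and Rbfox3. Only Mbnl1, Celf4 and Ptbp1 had q-values under 0.05 in both lists. Some kept genes had many euploid peaks, with 33 in Celf2, 26 in Rbfox3 and 22 in Celf4. Spliceosome and hnRNP proteins kept 0 of 22 and gained U2af2 and Sf3a3, with q-values of 0.0903 and 0.750. Oxidative phosphorylation kept 0 of 26 (45 euploid peaks and no Ts65Dn peak), the proteasome 0 of 16, ribosomal proteins 1 of 29 (Rps10) and translation factors 1 of 29 (Eef1a1). Housekeeping lists together, tubulins and actins included, kept 5 of 113 genes (4.42%, interval 1.90 to 9.94%), and synaptic lists together 29 of 175 (16.6%, interval 11.8 to 22.8%). These housekeeping lists had a median of 1 euploid peak per gene except tubulins and actins, which had 2 and kept Actb, Tuba1a and Tubb5. At equal numbers of peaks, 2.45% of housekeeping genes had a peak in each genotype (8 of 326 both times), and 12.5% of synaptic genes had one of the strongest euploid peaks against 10.4% with a Ts65Dn peak. For all protein-coding genes these shares were 3.69 and 3.24%. Motors and microtubule proteins kept 12 of 64 and solute carriers 16 of 131 (12.2%), among the latter the vesicular and glial glutamate transporters Slc17a7, Slc1a2 and Slc1a3. In these lists only Myo16, Slc29a1, Slc35e4 and Slc24a1 were kept with q-values under 0.05 in both genotypes.

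Marker genes were examined as a check of the tissue. Of 22 markers of hippocampal pyramidal and granule neurons 12 had a euploid peak, and 1 (Slc17a7) was kept. Interneuron markers had a euploid peak in 2 of 18, astrocyte markers in 8 of 15, oligodendrocyte markers in 4 of 17, endothelial and mural markers in 2 of 16, and microglia markers in 0 of 16. The kept markers besides Slc17a7 were Slc1a2 and Slc1a3 of astrocytes and Mbp, the myelin basic protein, of oligodendrocytes, but only Mbp had q-values under 0.05 in both lists. The Ts65Dn peaks of Slc17a7, Slc1a2 and Slc1a3 had q-values of 0.183, 0.293 and 0.293. Hippocampus is a mixture of cell types, and in such bulk material fewer cells of a type and less signal or RNA per cell cannot be told apart.

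The triplicated segment carried 250 euploid peaks (1.10% of the list) and 26 Ts65Dn peaks (2.02%, interval 1.38 to 2.94%), and 10 of each overlapped. Of the 1290 strongest euploid peaks 18 lay there (1.40%). At gene level 10 of 56 were kept (17.9%, interval 10.0 to 29.8%), Brwd1, Scaf8, App, Arid1b, Mrps6, Tiam1, Kcnj6, Pde10a, Dscam and B3galt5, with 6.47 Ts65Dn peaks per 100 euploid peaks. Over all euploid genes the kept share was 9.92%. Only Brwd1, Scaf8 and App had q-values under 0.05 in both lists, and Brwd1 is uncertain as binding, as given above. App, the amyloid precursor protein, went from 10 peaks to 2, Kcnj6, the GIRK2 channel, from 17 to 2 and Dscam from 9 to 1. Dyrk1a, a kinase in the same segment, had 2 euploid peaks up to 5.02 and lost both, and Olig2 had none in either genotype. The other 46 of the 56 genes were lost.

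RNA from embryonic forebrain neuronal cultures gave a separate readout on the same genes, in other tissue, at another age and in both sexes, so it cannot be matched to the hippocampal peaks animal by animal. With the quasi-likelihood test of edgeR, 8017 of 17173 genes tested were called at an adjusted p under 0.05 (46.7%), 4390 higher (25.6%) and 3627 lower (21.1%) in Ts65Dn. Among kept genes 131 of 605 tested were higher (21.7%) and 254 lower, with a median log2 fold change of -0.13. Among lost genes 1363 of 5559 were higher (24.5%) and 1613 lower (29.0%), with a median of -0.02, and among gained genes 22 of 62 were higher and 10 lower, with a median of 0.20. Genes with no peak were higher in 30.7% and lower in 17.4%, and over all 14253 tested protein-coding genes 3984 were higher and 3277 lower, with a median of 0.04. Kept genes were also the most abundant in these cultures (median log2 CPM, library-scaled counts, of 6.35, against 5.52 for lost and 4.86 for gained genes), and the part of abundance in the number of calls was not tested.

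**Figure D5:**
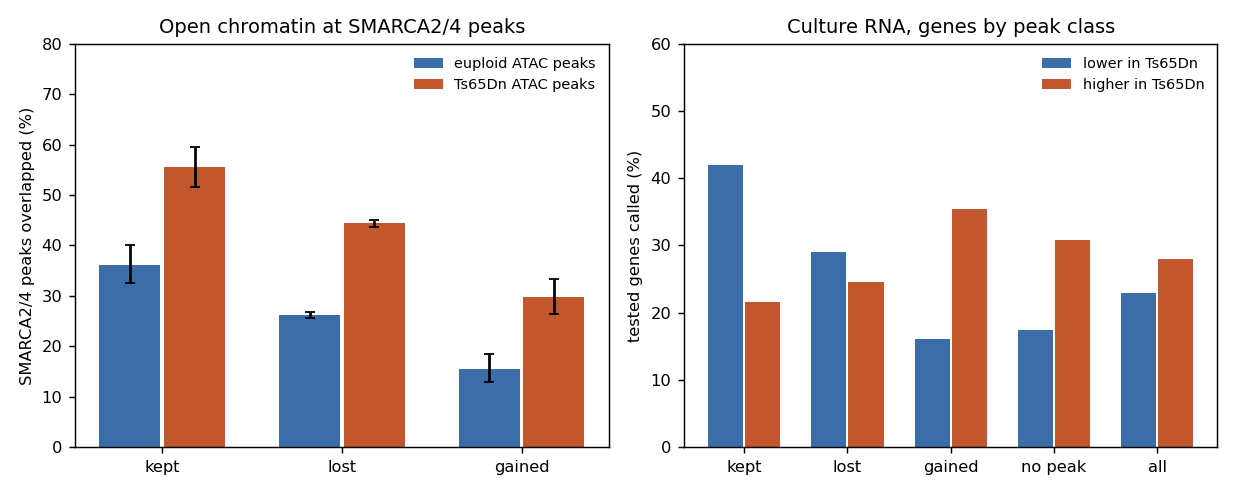
Left, percent of kept, lost and gained SMARCA2/4 peaks overlapped by a euploid (blue) or Ts65Dn (orange) ATAC peak, with Wilson 95% intervals. Right, percent of tested genes of each peak class called lower (blue) or higher (orange) in Ts65Dn cultures; of 605 kept genes 254 were lower and 131 higher.

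Genes of the synapse were mostly lower in these cultures. Of GABA receptors, none of which had a Ts65Dn peak, 15 of 17 tested were lower and 0 higher (median log2 fold change -1.04), and of glutamate receptors 17 of 25 were lower and 1 higher (median -1.01). Vesicle release genes were lower in 48 of 56 (median -1.13) and postsynaptic genes in 42 of 54 (median -0.76). Interneuron markers were lower in 15 of 18 and markers of pyramidal and granule neurons in 12 of 20, and their part in the synaptic lists was not tested. Wnt genes, which likewise had no Ts65Dn peak, went the other way, with 24 of 47 higher and 11 lower (median 0.38). Ribosomal protein genes were higher in 16 of 79 (20.3%, below the 25.6% of all genes tested) and lower in 0, and segment genes higher in 86 of 114 (median 0.65). Endothelial and mural markers were higher in 6 of 10, at low abundance, and of cytokine and MHC genes 27 of 48 were higher.

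Named genes of each class were called in both directions. Brwd1 stood at 93.2, 85.9 and 89.2 CPM in the 3 euploid and at 129.2, 126.2 and 125.1 in the 3 Ts65Dn cultures, which did not overlap, a log2 fold change of 0.50 ± 0.08 (SE) with an adjusted p of 0.00079 by edgeR. In the 3 Ts65Dn;Brwd1+/- cultures it stood at 145.1, 146.1 and 124.3 CPM, so only the last of them lay below the Ts65Dn values. By qPCR the study found Brwd1 RNA restored by this cross in embryonic forebrain. Whether counts over the whole gene fall with the mutation was not tested. Ss18l1, which kept 10 of its peaks, was lower (47.2 ± 1.72 against 29.8 ± 2.99 CPM, mean ± SD, n = 3 each; log2 fold change -0.66, adjusted p 0.00022 by edgeR). Camk2b, kept, was lower by a log2 fold change of -1.27 (edgeR adjusted p 0.012), with 489.9 ± 51.6 CPM in euploid and 202.6 ± 104.4 CPM in Ts65Dn. Actl6b, lost, was lower too, at -1.45 (edgeR adjusted p 0.0027). Smarca2 and Smarca4, both lost, did not pass the threshold, at -0.03 and -0.16. Dyrk1a, lost, and App, kept, were both higher, at 0.52 and 0.67 (edgeR adjusted p 0.00011 and 0.0012), and Dscam and Kcnj6, kept, stood at -0.64 and -0.80 without passing. Both were called with no count filter (edgeR adjusted p 0.014 and 0.0061) and without Ts65Dn replicate 1 (0.049 and 0.031), and Kcnj6 also with the replicate number as a block (0.040). Among the 8 gained genes named above Postn rose most, from 7.12 ± 0.793 to 84.4 ± 15.0 CPM (log2 fold change 3.56, edgeR adjusted p 7.8e-07), Cntln and Ppp1r18 rose by 0.52 and 0.53, and Mum1, Prr14l, Tmem38b and Pced1b did not pass (Mum1 was called without euploid replicate 1, at -0.24, and with RLE scaling, at -0.21, edgeR adjusted p 0.048 and 0.049). Of the lost genes named above Kifc3 and Pbld2 rose, at 1.04 and 0.97 (Pbld2 was not called without euploid replicate 1 or 3, at 0.87 each), and Zfp703 (0.31), Sgsm2 (-0.14), Tnrc18 (0.07) and Tbc1d22a (0.05) did not pass. Zfp703 was called with the replicate block (0.30, edgeR adjusted p 0.0063) and without Ts65Dn replicate 1 (0.39, adjusted p 0.035). A630010A05Rik and Itgb7 were too low to be tested.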

How the data were processed

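The authors aligned ChIP-seq and ATAC-seq reads to mm10 with HISAT2, kept uniquely mapped reads without duplicates and called peaks with MACS, for ChIP-seq against input, and they annotated the peaks with the region tool of diffReps. They deposited 1 list per genotype and assay, and how replicates were combined is not stated. Deposited with each peak were its fold enrichment (a ratio, not a log value) and a q-value, which belongs to its own list. The authors state a limit on the false discovery rate, but q-values ran up to 0.153 in euploid and 1 in Ts65Dn SMARCA2/4 peaks. For RNA the authors deposited raw read counts per gene and library, and whether strand was used is not stated. The counting tool is uncertain, because the study names featureCounts and the deposited counts end in the tally lines that htseq-count adds. Those lines took 37.4 to 40.0% of all counts and were left out.

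Groups were taken from the labels. Start and end of a peak were both treated as belonging to it, since their base is not stated. Peaks were assigned to genes as deposited, and 7806 of 7824 euploid and 827 of 828 Ts65Dn gene identifiers were in the GENCODE mm10 annotation, from which the 21951 protein-coding genes were taken. Peak sequences were read from the mm10 reference and windows were 100 bp around the peak centre. Replicates of the cultures are separate samples in the labels, but whether they are separate litters is not stated, so p-values measure the spread between these samples. Counts in genes were 17270070 to 25892802 per library. The 9 cultures were fitted with edgeR 4.0.16 (filterByExpr, TMM, quasi-likelihood F-test, genotype only) and p-values were adjusted by Benjamini-Hochberg with a threshold of 0.05. The read depth behind the peak lists is unknown, and intervals on shares of peaks cover counting error only. Same-numbered euploid and Ts65Dn cultures deviated together from their group means (correlations across genes of 0.129, 0.206 and 0.263), so a fit with the replicate number as a block was run as well. The overlap and edgeR steps were tested on simulated data. The members and gene lists were chosen with earlier results of these data known. Named genes were, for kept, lost and gained protein-coding genes on chromosomes 1 to 19 and X, the 8 with the highest fold enrichment of a promoter or gene body peak with q under 0.05, in each list the 3 kept or gained genes with the highest Ts65Dn fold enrichment, and a few genes of the BAF complex and the segment. Members of lists and genes with at least 20 euploid peaks were named besides, after their values were seen. Alternatives were other overlap rules, a q-value limit, equal numbers of peaks, standard chromosomes, promoter peaks, other scalings and filters, DESeq2 1.42.0, leaving out each culture, and, chosen after seeing the data, half-open positions and the removal of repeat-masked peaks. The ATAC-seq list of Ts65Dn;Brwd1+/- was not used. Some named genes and sequences are not reported here.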

Additional observations from a re-analysis of the deposited data

How the results depend on the processing

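The kept share of euploid peaks (2.67%) was 1.34% when the midpoint of the euploid peak had to lie in a Ts65Dn peak, 2.23% when 50% of the shorter peak had to overlap, 6.26% with a gap of up to 500 bp, 1.20% with q under 0.05 in both lists, 12.4% and 15.0% with equal numbers by fold enrichment and by q, and 2.32% without repeat-masked peaks, an alternative chosen after seeing the data. The gained share of Ts65Dn peaks (51.9%) was 59.5% at 50% overlap, 30.4% with the gap, 42.4% with q under 0.05, and 86.7% and 84.0% with equal numbers. The kept share of genes (9.92%) was 3.08% with q under 0.05, 24.5% and 29.7% with equal numbers, 6.82% with promoter peaks only and 9.07% without repeat-masked peaks, and the gained share (10.1%) was 72.0%, 67.4% and 13.3% under equal numbers by fold enrichment, by q, and with promoter peaks only. With equal numbers and with the q limit fewer peaks enter, so these shares are not like for like, and the cause of each move was not tested. In the euploid list, equal numbers by fold enrichment and by q gave 27.7% and 23.2% in proximal promoters, 19.1% and 22.02% in gene bodies, and 14.6% and 16.9% between genes. In the Ts65Dn list, q under 0.05 gave 10.98% in proximal promoters, 28.05% in gene bodies and 33.4% between genes, where standard chromosomes gave 19.8% and removal of repeat-masked peaks 19.1%. Of the kept shares of single lists 69 of 150 values moved beyond their interval under an alternative, and with q under 0.05 in both lists 0 of 16 glutamate receptor and 2 of 20 BAF subunit genes were kept.

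The count of called culture genes lay between 6667 and 7729 without any single replicate, and was 8349 with the replicate block, which moved no count of calls over 1.5 times and, among genes given above with a culture value, changed the calls of Kcnj6 and Zfp703. Calls among kept genes (63.6% of those tested) were 58.0% with no count filter, 57.6% from 6 libraries only, and 51.4 to 61.6% without any single replicate. Among lost genes (53.5%) they were 48.0% with no count filter, 50.2% with DESeq2, 48.2% from 6 libraries, 56.4% with the replicate block, and 45.5 to 52.0% without any single replicate. Over the 105 named genes with a culture value, 47 of 1155 log2 fold changes under an alternative had the opposite sign, in 19 genes, none of which was called. With no count filter the reversed values were -0.0273 in Hes6, -0.0356 in Numbl, -0.00703 in Per1, -0.00212 in Nrp1 and -0.0034 in Prr14l, and from 6 libraries -0.0241 in Hes6, -0.0332 in Numbl, -0.00463 in Per1 and -0.00059 in Prr14l. Hes6 and Numbl were also reversed with RLE scaling (-0.0116 and -0.0205) and with DESeq2 (-0.0160 and -0.0250). Without any single replicate Hes6 ranged from -0.0733 to 0.0699, Numbl from -0.106 to 0.0741, Per1 from -0.0773 to 0.170, Nrp1 from -0.0642 to 0.0710, Prr14l from -0.0231 to 0.0693, Bicra from -0.202 to 0.00052, Dot1l from -0.219 to 0.0167, Irf2bp2 from -0.118 to 0.0027, Kdm6b from -0.175 to 0.00064, Mbp from -0.0020 to 0.264, Nfix from -0.163 to 0.0492, Nr4a3 from -0.141 to 0.0736, Papss2 from -0.0853 to 0.188, Pced1b from -0.120 to 0.0508, Slc35e4 from -0.177 to 0.0481, Slit3 from -0.244 to 0.128, Tbc1d22a from -0.0343 to 0.104, Thrb from -0.151 to 0.0058 and Tnrc18 from -0.0165 to 0.191. The cause of these moves was not tested.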

Other observations

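Chromosome X held 33 euploid SMARCA2/4 peaks (0.146%, interval 0.104 to 0.204%), 11 Ts65Dn peaks (0.853%, interval 0.477 to 1.52%) and 7 of the 1290 strongest euploid peaks (0.543%). Its share of ATAC peaks was 1.55% in euploid and 1.64% in Ts65Dn. Peaks off chromosomes 1 to 19 and X made up 0.256% of the euploid list (58 peaks) and 3.10% of the Ts65Dn list (40 peaks). Of these, 18 euploid and 9 Ts65Dn peaks lay on the mitochondrial genome and 37 and 28 on unplaced contigs and patches.

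Several of the strongest peaks of both lists were short and lay between genes. One on chromosome 6 (chr6:105120275-105120345 in euploid) had a fold enrichment of 12.9 in euploid and 15.9 in Ts65Dn, and one on chromosome 1 (chr1:145776766-145776830) had 10.3 and 12.8. Both also had a Ts65Dn;Brwd1+/- peak. The strongest gained peak lay in the body of Cpne4, a copine, at 8.54, and it too had a counterpart in Ts65Dn;Brwd1+/-. Cpne4 counts as a kept gene, since it had 2 euploid peaks at other sites.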
